A study of Homo sapiens with 8 samples.

Results

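The LAMP family is a set of 5 lysosomal membrane glycoproteins, encoded by LAMP1, LAMP2, LAMP3, LAMP5 and CD68, and its transcripts were followed in the human B-cell line JVM13 after induction of cyclin D1. The members were the 18 probe sets annotated to exactly 1 of these genes, of 45220 probe sets with a single gene, or 5 of 18231 genes. LAMP5 was chosen by its measured values, since its rise with wild-type cyclin D1 and its lower level in T286A cells had already been seen in these arrays. Its levels are therefore given as a description without a test, and the other 4 genes were taken as its relatives. JVM13 is an established line from a prolymphocytic leukaemia. The cells carried a doxycycline-inducible construct for wild-type cyclin D1 (titled CycD1 wt, n = 3 arrays), for the stable T286A form (CycD1 T286A, n = 3) or the matching vector with no insert (control, here called empty vector, n = 2). All cells, empty vector included, received 0.1 µg/mL doxycycline. The labels do not say whether replicates were separate cultures or how many cell populations were made per construct, so p-values measure the spread between these arrays, which may be technical.

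LAMP proteins have a heavily glycosylated part inside the lysosome, 1 membrane span and a short cytosolic tail with a sorting signal. LAMP1 and LAMP2 are the abundant, nearly ubiquitous members and line the lysosomal membrane. Alternative last exons of LAMP2 give several proteins, of which LAMP2A is the receptor of chaperone-mediated autophagy. The other 3 are restricted to certain cells: LAMP3 (DC-LAMP) is known from mature dendritic cells, CD68 from macrophages, and LAMP5 (BAD-LAMP) from neurons and plasmacytoid dendritic cells, where it takes part in the trafficking of endosomal Toll-like receptors.

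LAMP5, LAMP1 and CD68 begin at unlike promoters, and no promoter window was available for LAMP2 and LAMP3. The 250 bases before the annotated start are printed for LAMP5, because its transcript moved, and for LAMP1 and CD68, for comparison (RefSeq, GRCh38.p14, plus strand, 5′ to 3′). They lie at chr20:9514340-9514589, chr13:113296989-113297238 and chr17:7579388-7579637. Capitals mark CACGTG, the E-box core read by TFEB, the main activator of lysosomal genes, and by MYC with MAX, or the CCAAT box, which reads ATTGG on the other strand.
LAMP5: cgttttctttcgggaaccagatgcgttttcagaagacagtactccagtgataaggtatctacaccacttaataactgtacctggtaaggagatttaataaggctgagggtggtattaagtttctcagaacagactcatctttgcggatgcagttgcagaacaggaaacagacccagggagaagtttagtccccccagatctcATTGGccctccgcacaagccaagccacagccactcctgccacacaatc
LAMP1: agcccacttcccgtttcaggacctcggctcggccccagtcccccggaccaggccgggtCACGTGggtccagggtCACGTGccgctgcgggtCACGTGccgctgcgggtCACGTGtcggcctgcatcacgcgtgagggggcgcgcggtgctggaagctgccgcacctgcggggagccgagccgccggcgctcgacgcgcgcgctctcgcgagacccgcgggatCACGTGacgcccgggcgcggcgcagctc
CD68: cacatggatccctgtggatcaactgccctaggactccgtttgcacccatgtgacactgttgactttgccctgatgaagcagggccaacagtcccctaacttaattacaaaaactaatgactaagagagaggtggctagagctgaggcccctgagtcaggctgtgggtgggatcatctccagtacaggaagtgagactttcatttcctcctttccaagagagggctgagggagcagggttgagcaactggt

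The LAMP1 window held 5 CACGTG matches, which begin 192, 176, 159, 142 and 28 bases before the start, and the LAMP5 and CD68 windows held 0. Of 15842 protein-coding promoter windows of the same length, 7.84% held CACGTG and 1, that of LAMP1, held 5 or more. LAMP5 had 1 CCAAT box, 48 bases before its start, as did 34.5% of windows at least once. Neither the E2F site (TTTCGCGC or TTTGGCGC on either strand, 1.40% of windows) nor TATAAA (either strand, 9.24%) was present in these 3 windows. GC content was 47.6% for LAMP5, 51.6% for CD68 and 76% for LAMP1, against 61.0% over all windows. CACGTG reads the same on both strands, and no match of the 2 marked motifs overlapped another. These are matches of letters, and binding at these windows was not measured.

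CCND1 itself marked the constructs. Its brightest probe set was at 4.98 and 5.25 (log2) in empty vector and between 10.86 and 11.25 in the 6 cyclin D1 arrays. Its other 3 probe sets did not follow, with differences of -0.028 to 0.10 for wild type and -0.092 to 0.036 for T286A, and which part of the transcript each reads was not examined. JVM13 arrays read as B cells: all 7 measured B-cell markers, such as CD79A and MS4A1, lay above the median of all genes (5.94), and 0 of 8 neuron markers did. Array medians lay between 5.47 and 5.62. Replicates of 1 group correlated at 0.994 to 0.997 over all probe sets, and the lowest values, 0.994 and 0.995, were those of wild-type replicate 2.

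LAMP5 was high with wild-type cyclin D1 and lowest with T286A. Its brightest probe set, 11724996_at, was at 7.95 and 7.96 in empty vector, at 9.81, 9.77 and 9.74 with wild type and at 7.74, 7.57 and 7.55 with T286A. Every wild-type array thus stood above every other array, and every T286A array stood below both empty vector arrays. The means were 7.96 ± 0.0071 in empty vector (SD, n = 2), 9.77 ± 0.038 with wild type (n = 3) and 7.62 ± 0.10 with T286A (n = 3). Wild type exceeded empty vector by 1.82 ± 0.077 (SE), or 3.52-fold, the third largest rise among 18231 genes. That rank counts the induced CCND1 itself, whose brightest probe set rose by 5.95. T286A differed from empty vector by -0.34 ± 0.077, a level 0.792 times as high, which ranked only 394 among falls. The 2 constructs therefore lay on opposite sides of the empty vector, and T286A minus wild type came to -2.15 ± 0.069.

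The other LAMP5 probe set gave the same order of groups. On 11747577_a_at the arrays read 6.90 and 7.02 in empty vector, 8.98, 9.03 and 9.14 with wild type and 6.60, 6.35 and 6.58 with T286A. The groups again did not overlap, and wild type minus empty vector was 2.09 ± 0.10, T286A minus empty vector -0.45 ± 0.10 and T286A minus wild type -2.55 ± 0.091. Over the 8 arrays, which share 3 groups, the 2 probe sets correlated at 0.996, with the wild-type arrays standing apart on both. In empty vector cells LAMP5 already gave a signal above the median of all genes on both probe sets. Fewer cells with LAMP5 and less LAMP5 RNA per cell cannot be told apart in bulk RNA. A second gene, the antisense RNA LAMP5-AS1, runs across the start of LAMP5, and whether these probe sets read it was not tested.

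**Figure D1:**
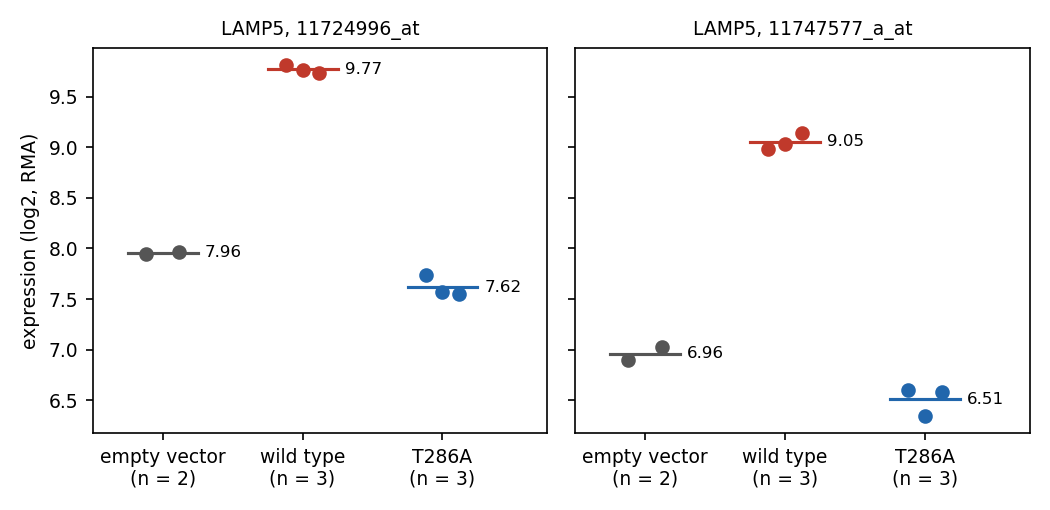
Expression of LAMP5 (log2, RMA) in every array for both of its probe sets, with 1 point per array and a bar and number for each group mean. The wild-type arrays sit at 8.98 to 9.81, above all others, and the T286A arrays lie below empty vector on each probe set.

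None of the other 4 members was called. In the fit of all genes with limma, 0 of 4 were called at an adjusted p under 0.05 in each of the 3 comparisons, where 1.74% of all genes were called with wild type, 0.532% with T286A and 0.987% between the 2 constructs. At an unadjusted limma p under 0.05 the count was also 0 of 4 in each, where 13.5%, 12.1% and 13.6% of all genes passed. Of their 16 probe sets, 0 were called in any comparison, where 0.847%, 0.122% and 0.568% of all probe sets were, in the same order. A count of 0 among so few probe sets lies near those shares. At an unadjusted limma p under 0.05 there was 1, 0 and 1, each time the same dim LAMP2 probe set, against 11.5%, 10.5% and 11.7% of all probe sets. Groups did not overlap for 7, 0 and 2 of the 16, against 28.4%, 30.0% and 17.4% of all probe sets. Groups without overlap were thus common over the whole table.

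LAMP1, the most widely used lysosome marker, had nearly the same value in all arrays. Its brightest probe set, 11757529_s_at, read 11.62 in both empty vector arrays, 11.61, 11.62 and 11.60 with wild type and 11.62, 11.59 and 11.64 with T286A. Wild type minus empty vector was -0.0082 (95% interval -0.15 to 0.13) and T286A minus empty vector -0.0018 (-0.14 to 0.14). T286A minus wild type was 0.0063 (-0.12 to 0.13). This probe set is among the brightest of the array, and saturation was not tested. The SD of its groups ran from 0.00092 to 0.025. On 11753963_x_at LAMP1 read 10.91 and 10.88 in empty vector, 10.91, 10.94 and 11.04 with wild type and 10.92, 10.84 and 10.85 with T286A. Here the wild-type arrays lay above empty vector, but the lowest only barely, at 10.9095 against 10.9085. The mean difference was 0.072 (-0.10 to 0.25, limma adjusted p = 0.797), in the direction opposite to the brightest probe set. On 11749875_a_at the wild-type difference was 0.094 and the T286A difference -0.062, and empty vector at 9.91 and 9.72 overlapped both. On 11749875_a_at the T286A arrays (9.81, 9.65 and 9.80) lay just below the wild-type arrays (9.89, 9.81 and 10.03), with a difference of -0.16 (-0.36 to 0.049, limma adjusted p = 0.541).

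LAMP2 was read by 9 probe sets whose mean levels spanned 4.10 to 9.95. On the brightest, 11717479_at, the arrays read 9.91 and 10.03 in empty vector, 9.90, 10.00 and 9.83 with wild type and 9.99, 9.92 and 10.01 with T286A. All groups overlapped there, and their SD was 0.046 to 0.087. The differences were -0.061 (-0.24 to 0.12) for wild type and 0.0033 (-0.18 to 0.18) for T286A, with limma adjusted p of 0.811 and 0.993. Over all 9 probe sets the difference ranged from -0.28 to 0.26 with wild type and from -0.17 to 0.081 with T286A. The low end belonged to 11748160_s_at in both cases.

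The next 4 LAMP2 probe sets were also above the median of all genes and did not point the same way. On 11717478_at the arrays read 8.82 and 8.83 in empty vector, 8.95, 8.59 and 8.76 with wild type and 8.67, 8.92 and 8.89 with T286A. On 11750202_a_at they read 8.56 and 8.74, then 8.87, 8.65 and 8.41, then 8.68, 8.80 and 8.67, in the same order of groups. Both show wild-type arrays that spread more widely (SD 0.18 and 0.23) than the differences of -0.062 and -0.0048 from empty vector. On 11748160_s_at empty vector was at 7.68 and 7.93, wild type at 7.75, 7.48 and 7.33 and T286A at 7.55, 7.55 and 7.81, so the largest LAMP2 difference, -0.28 (-0.61 to 0.045, limma adjusted p = 0.519), came with groups that overlapped. On 11742685_a_at the difference was positive, 0.10 (-0.12 to 0.32), with empty vector at 7.53 and 7.50 and wild type at 7.49, 7.61 and 7.75.

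The 4 dimmest LAMP2 probe sets, at mean levels of 4.10 to 4.51, all had positive differences with wild type, from 0.013 to 0.26. On 11749876_a_at the wild-type arrays were at 4.71, 4.49 and 4.85, above the empty vector arrays at 4.36 and 4.48 and the T286A arrays at 4.36, 4.40 and 4.44. Wild type minus empty vector was 0.26 ± 0.11 (limma adjusted p = 0.400), and T286A minus wild type was -0.28 ± 0.097 (adjusted p = 0.322). These levels lie below the median of all genes, and neither difference was called. Which LAMP2 splice form each probe set reads was not examined, so a shift between LAMP2A and its alternatives was not tested.

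LAMP3 and CD68 were dim. For LAMP3 the brighter probe set, 11725429_at, read 4.93 and 4.90 in empty vector, 4.51, 4.68 and 4.82 with wild type and 5.06, 4.43 and 4.91 with T286A. The wild-type arrays were all below empty vector, by 0.24 on average (interval of the difference -0.65 to 0.16, limma adjusted p = 0.621), and T286A spread across both. On 11749552_a_at empty vector was at 4.99 and 4.67 and wild type at 4.57, 4.51 and 4.42, again without overlap, with a difference of -0.33 (-0.66 to 0.0057, adjusted p = 0.442). T286A read 4.40, 4.43 and 4.82 there, a difference of -0.28 (-0.61 to 0.055, adjusted p = 0.570). Between the constructs LAMP3 differed by 0.13 and 0.049 on its 2 probe sets, within the spread of their arrays. All 4 LAMP3 differences from empty vector were thus below 0, and none passed the test.

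CD68 gave 5.95 and 5.79 in empty vector, 5.85, 5.66 and 6.11 with wild type and 5.93, 6.01 and 5.85 with T286A on 11750359_x_at. The differences from empty vector were 0.0079 (-0.29 to 0.30) and 0.066 (-0.23 to 0.36). On 11729741_x_at empty vector was at 5.01 and 4.77, wild type at 4.61, 4.76 and 4.69 and T286A at 4.66, 4.49 and 4.82. Every wild-type array was below empty vector there, the highest only barely (4.7601 against 4.7652), while T286A overlapped it. The differences were -0.20 and -0.23, with limma adjusted p of 0.575 and 0.547. Both CD68 probe sets, like 11753963_x_at of LAMP1, have the suffix x, by which the manufacturer marks probes that can match other sequences. The means of all LAMP3 and CD68 probe sets over the arrays lay below the median of all genes, although single arrays of 11750359_x_at passed it, and the table has no detection call for them.

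**Figure D2:**
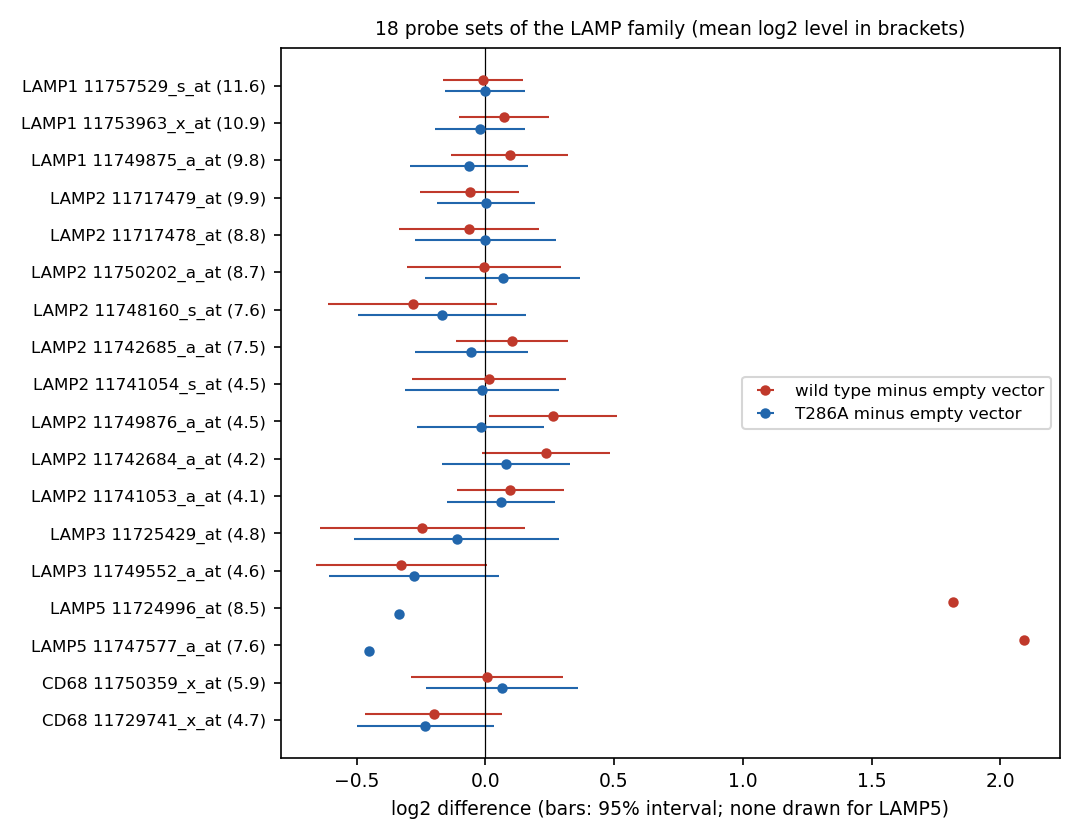
Log2 differences from empty vector for all 18 probe sets, wild type in red and T286A in blue, with limma 95% intervals for all genes except LAMP5. The 16 probe sets of LAMP1, LAMP2, LAMP3 and CD68 stay between -0.33 and 0.26, while LAMP5 reaches 1.82 and 2.09 with wild type.

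The wider lysosome was examined with 7 lists holding 162 measured genes, each counted in the fit of all genes. Of the 162, limma called 0 higher and 1 lower with wild type, 0 higher and 1 lower with T286A, and 0 higher and 2 lower in T286A against wild type. The shares of all genes called higher and lower were 0.603% and 1.14% for wild type, 0.34% and 0.192% for T286A, and 0.598% and 0.389% for T286A against wild type. The gene lower with both constructs was GGA1, an adaptor that sorts mannose 6-phosphate receptors towards endosomes, at -0.49 ± 0.079 with wild type (limma adjusted p = 0.0259) and -0.49 ± 0.079 with T286A (adjusted p = 0.0458). Its arrays were at 9.33 and 9.23 in empty vector and between 8.68 and 8.87 in all 6 cyclin D1 arrays, and both comparisons share the same 2 empty vector arrays. The T286A call was lost on leaving out any 1 of the 8 arrays (adjusted p 0.0547 to 0.268), and the wild-type call on leaving out any of 6, T286A replicates 1 and 2 excepted (0.0557 to 0.182). Over the mean of its probe sets neither was called (adjusted p = 0.0576 for wild type and 0.05001 for T286A). The other GGA1 probe sets differed by -0.31 and -0.15 with wild type and by -0.43 and -0.16 with T286A, none called.

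Among 26 other lysosomal membrane proteins, 2 were called lower in T286A than in wild-type cells. Against empty vector limma called 0 with either construct, and 3 and 6 of the 26 had an unadjusted p under 0.05 with wild type and T286A (11.5% and 23.1%, against 13.5% and 12.1% of all genes). With only genes at or above the median level, ABCB9 (-0.49, adjusted p = 0.0359) and SCARB2 (-0.35, adjusted p = 0.0398) were called against empty vector with T286A. In that setting limma called 527 genes in all with T286A. SCARB2 (LIMP-2), which carries glucocerebrosidase to the lysosome, was at 8.14 and 8.01 in empty vector, at 8.37, 8.36 and 8.26 with wild type and at 7.68, 7.64 and 7.85 with T286A. The order of its groups was that of LAMP5, with wild type above and T286A below empty vector and no overlap. T286A minus wild type was -0.60 ± 0.077 (limma adjusted p = 0.0122), and the differences from empty vector, 0.25 and -0.35, were not called. Its 3 dimmer probe sets had negative differences as well, -0.14, -0.41 and -0.20, none called. ABCB9, a lysosomal peptide transporter, differed by -0.65 ± 0.098 on its brightest probe set (adjusted p = 0.0231), and the mean of its 8 probe sets differed by only -0.0995 (adjusted p = 0.485). The SCARB2 call was lost without wild-type replicate 1 or T286A replicate 1 or 2 (adjusted p 0.0551 to 0.0580), and the ABCB9 call without any wild-type replicate or T286A replicate 2 or 3 (0.0685 to 0.0918).

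In the remaining lists limma called 0 genes in any comparison, GGA1 apart. This count depended on the setting. With trend and robust eBayes limma called 747, 626 and 602 of all 18231 genes in the 3 comparisons. Of the 37 lysosomal enzymes and activators 3, 2 and 5 were then called, and of the 16 proton pump genes 0, 1 and 2. The TFEB list had 1 between the constructs. With only genes at or above the median level, limma called 629, 527 and 381 of the genes kept. There the enzymes gave 3, 3 and 2 calls and the pump 0, 1 and 1. The autophagy list gave 1 with T286A and the TFEB list 1 between the constructs. The proton pump that acidifies the lysosome had a median of -0.042 with wild type and -0.15 with T286A, where all genes had medians of 0.0016 and -0.0030. With T286A, 15 of its 16 subunit and accessory genes had negative differences, against 50.9% of all genes, and 6, all lower, had an unadjusted limma p under 0.05, with 1 for wild type and 4 between the constructs. Of all genes, 6.15%, 7.42% and 6.46% were lower at that level with T286A, with wild type and between the constructs, and for the pump the shares were 37.5%, 6.25% and 25%. For 37 lysosomal enzymes and activators the medians were -0.026 and -0.070. At an unadjusted limma p under 0.05 there were 3 higher and 3 lower with wild type, 1 and 8 with T286A, and 3 and 9 between the constructs. In either direction the shares were 16.2%, 24.3% and 32.4%, against 13.5%, 12.1% and 13.6% of all genes. The smallest p values of the enzymes belonged to the glucuronidase GUSB with wild type (0.34 ± 0.069, adjusted p = 0.0557) and to the cathepsin CTSH with T286A (-0.44 ± 0.081, adjusted p = 0.0627).

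TFEB and its relatives with the lysosomal nutrient sensors, 18 genes, had medians of 0.020 and -0.046. FLCN, a regulator of TFEB, had differences of 0.30 and 0.28, and TFEB itself of -0.26 and -0.10, all uncalled. At an unadjusted limma p under 0.05 there were 1, 2 and 2 of the 18 in the 3 comparisons, shares of 5.56%, 11.1% and 11.1%, where all genes had 13.5%, 12.1% and 13.6%. For 29 sorting genes the medians were -0.032 and -0.063, and for 22 autophagy genes -0.061 and -0.079. In the autophagy list 20 of 22 differences were negative with wild type, against 49.5% of all genes, with ATG16L1 nearest to a call (-0.34 ± 0.12, adjusted p = 0.246), and 3, 1 and 2 of 22 passed an unadjusted limma p under 0.05, shares of 13.6%, 4.55% and 9.09%. Among 14 genes of the endosomal Toll-like receptors and their trafficking, the compartment in which LAMP5 acts in plasmacytoid dendritic cells, the medians were 0.021 and -0.044, and 2, 2 and 0 passed an unadjusted limma p under 0.05, shares of 14.3%, 14.3% and 0%. UNC93B1, which escorts these receptors, differed by 0.13 with wild type and -0.069 with T286A, TLR9 by 0.0085 and -0.062, and CNPY3, a chaperone of the receptors, by 0.17 and 0.19, the last with an adjusted p of 0.283.

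**Figure D3:**
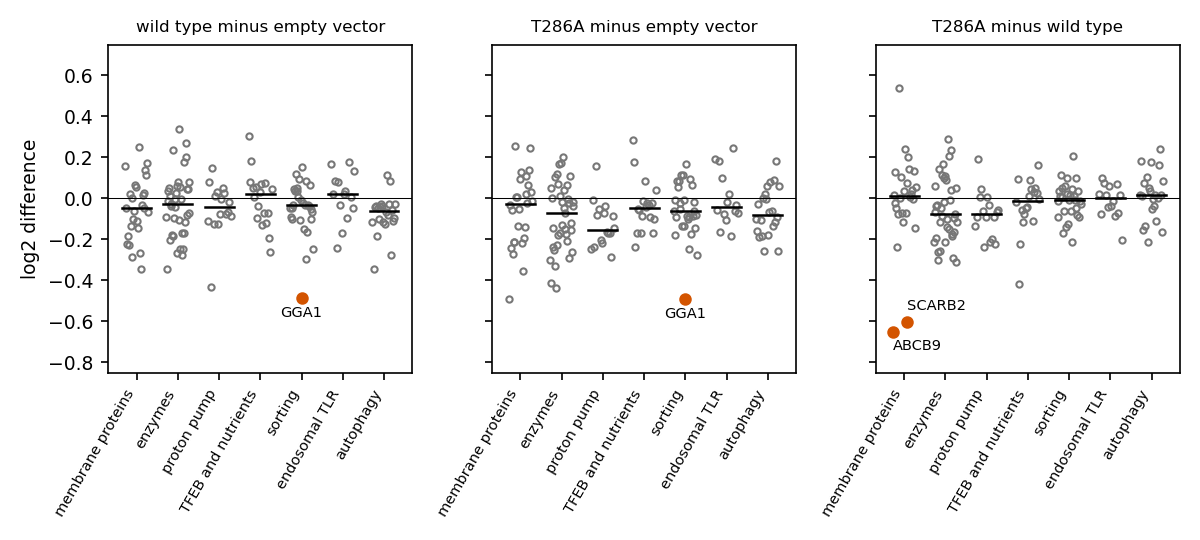
Log2 differences of 162 genes in 7 lysosome-related lists, 1 open point per gene, called genes filled and named, and a bar for each list's median. The called genes are GGA1, lower with both constructs, and SCARB2 and ABCB9, lower in T286A than in wild type.

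Markers of the cells that are known for LAMP5, LAMP3 and CD68 were set beside these values. Their counts at an unadjusted limma p under 0.05 read against 13.5%, 12.1% and 13.6% of all genes in the 3 comparisons. Of 7 measured plasmacytoid dendritic cell markers 1, NRP1, was above the median of all genes, and CLEC4C and LILRA4, which define those cells, were at 4.15 to 4.40 in every group mean. The mean level of the list was 5.02 and 5.15 in the empty vector arrays, 4.95 to 5.05 with wild type and 5.00 to 5.02 with T286A. Of the 7, limma called 0 in each comparison, and 0, 1 and 1 passed an unadjusted p under 0.05. The 8 neuron markers averaged 4.46 to 4.65 over the arrays, with 0 called by limma and 1, 0 and 1 at an unadjusted p under 0.05. Of 9 macrophage and monocyte markers limma called 0, with 2, 1 and 4 at an unadjusted p under 0.05, and the list averaged 4.96 in empty vector, 4.86 to 4.96 with wild type and 5.00 to 5.02 with T286A. Between the constructs ITGAM differed by 0.45 on its brightest probe set (limma adjusted p = 0.242), and 1 of its other probe sets was called higher. Limma also called 1 gene of this list there with the mean of all probe sets, and 1 with trend and robust eBayes. AIF1, another macrophage marker of the list, differed by -0.69 with wild type (adjusted p = 0.145) and by 0.75 between the constructs (adjusted p = 0.110). Of the mature dendritic cell markers, some of which activated B cells also express, limma called 2 of 8 lower with wild type, where 1.14% of all genes were called lower. At an unadjusted limma p under 0.05, 5 of 8 were lower, against 7.42%. CD86 differed by -0.58 on its brightest probe set (limma adjusted p = 0.0750), and 3 of its other probe sets were called lower. The mean of the list was 8.07 and 8.16 in empty vector, 7.77 to 7.80 with wild type and 7.86 to 7.91 with T286A. FSCN1, an actin-bundling protein, fell by 0.69 (limma adjusted p = 0.0122), and CD83, a surface protein, fell by 0.65 (adjusted p = 0.0215). With T286A limma called 0 of 8, with 4 lower at an unadjusted p under 0.05, against 6.15% of all genes, and CD83 was called there in 3 of the alternative settings (adjusted p 0.00333 to 0.0435). FSCN1 was then 0.53 ± 0.082 higher in T286A than in wild type (adjusted p = 0.0239). The part of these markers in the LAMP3 and CD68 values was not tested. The wild-type calls were lost without empty vector replicate 2 for FSCN1 (adjusted p = 0.122) and without either empty vector replicate or wild-type replicate 3 for CD83 (0.0652 to 0.198), and FSCN1 against wild type without any of the 6 cyclin D1 arrays (0.0638 to 0.0988). In the B-cell list CD22 fell by 0.40 with wild type (adjusted p = 0.0498), a call lost on leaving out any 1 array (0.0607 to 0.251). The other CD22 probe set differed by -0.73 and was also called (limma adjusted p = 0.0446 across all probe sets). Of the 7 B-cell markers 2, 1 and 4 passed an unadjusted limma p under 0.05, shares of 28.6%, 14.3% and 57.1%. The 4 between the constructs were 2 higher and 2 lower.

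On chromosome 20, LAMP5 lies between the phospholipase genes PLCB1 and PLCB4 on one side and PAK5, ANKEF1 and SNAP25 on the other. PLCB4, the nearest on its side, encodes a phospholipase C activated by G proteins. It was at 4.19 and 4.22 in empty vector, at 5.45, 4.91 and 5.35 with wild type and at 4.26, 4.50 and 3.85 with T286A. The wild-type arrays were therefore the highest, as for LAMP5, and T286A spread around empty vector. T286A minus wild type was -1.03 ± 0.18 (limma adjusted p = 0.0459), and wild type minus empty vector was 1.03 ± 0.20 (adjusted p = 0.0508), not called. All 5 PLCB4 probe sets had positive differences with wild type, of 0.049 to 1.03, and the mean over them was called (0.43, adjusted p = 0.0186). They are all below the median of all genes. The call in T286A against wild type was lost on leaving out any array except wild-type replicate 2 (adjusted p 0.0580 to 0.154).

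PLCB1, a related phospholipase 1 gene further along, moved the other way. It was at 7.14 and 7.13 in empty vector, at 5.75, 5.80 and 5.40 with wild type and at 6.66, 6.93 and 6.48 with T286A. Wild type minus empty vector was -1.49 ± 0.15 (adjusted p = 0.00422) and T286A minus empty vector -0.45 ± 0.15 (adjusted p = 0.278), and T286A minus wild type was 1.04 ± 0.14 (adjusted p = 0.0143). Its other 2 probe sets, at mean levels of 4.69 and 4.26, differed by -0.12 and 0.075 with wild type and were not called. The wild-type call was lost without either empty vector replicate (adjusted p 0.0545 and 0.0693), and that between the constructs without T286A replicate 1 (0.0578) or over the mean of its probe sets (0.142). PAK5, on the other side of LAMP5, differed by 0.10 (-0.23 to 0.44) with wild type, ANKEF1 by 0.073 and SNAP25 by -0.24. TMX4, beyond PLCB1, differed by 0.19 (adjusted p = 0.330). Of the 6 neighbours limma thus called 1 with wild type and 2 between the constructs, where 1.74% and 0.987% of all genes were called.

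**Figure D4:**
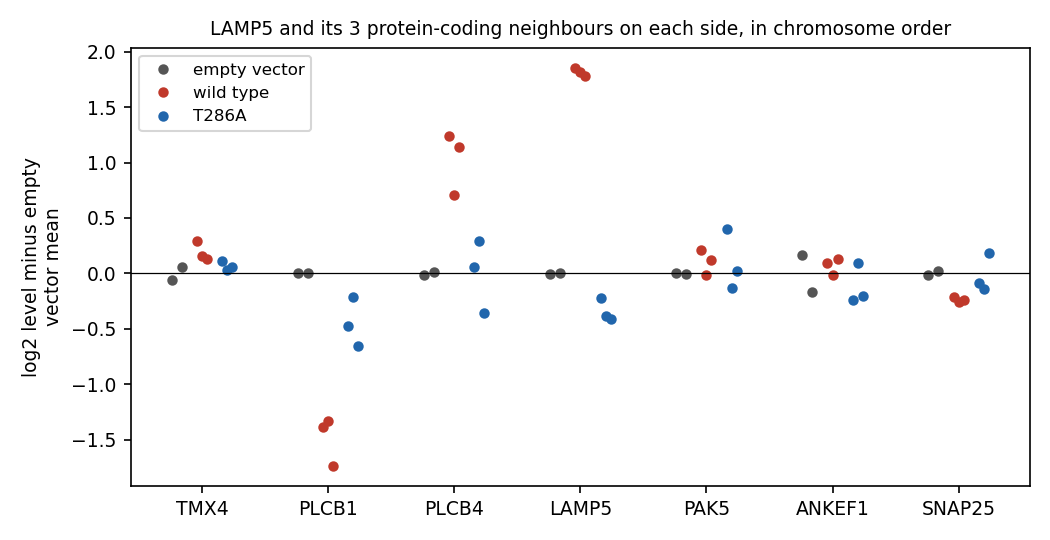
Level of LAMP5 and its 6 nearest protein-coding neighbours in each array, as log2 difference from the empty vector mean, in chromosome order. LAMP5 and PLCB4 are highest in the wild-type arrays, PLCB1 is lowest there, and PAK5, ANKEF1 and SNAP25 differ by -0.24 to 0.10 with wild type.

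Genes that followed LAMP5 across the arrays were ranked by Pearson correlation with its brightest probe set over the 8 arrays, among 345 genes whose range was at least 1. Since 1 group differs most, a high correlation mainly says that wild-type arrays stand apart, and it is given without a test. The closest were TENT5C (0.989), an RNA poly(A) polymerase, and FMN2 (0.988), an actin nucleator. TENT5C was at 8.19 and 8.22 in empty vector, at 9.15, 9.04 and 9.06 with wild type and at 8.09, 7.82 and 8.07 with T286A. It shared with LAMP5 the slightly lower T286A level, at -0.21, whereas FMN2 differed by -0.013 there and by 3.65 with wild type. NEBL, LGALS14, CBLN2, SPATA18, CLIC6, TMT1A, DPY19L1 and CCDC74A followed, with correlations of 0.973 to 0.943 and differences of 0.53 to 1.34 with wild type. Their differences with T286A ran from -0.25 (CCDC74A) to 0.054 (CBLN2), with NEBL at -0.21, so the lower T286A level was not particular to TENT5C. Correlations above 0.9 were reached by 18 of the 345.

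The opposite pattern was closer still. AK4, a mitochondrial adenylate kinase, had a correlation of -0.996, with 10.28 and 10.29 in empty vector, 9.55, 9.58 and 9.53 with wild type and 10.39, 10.55 and 10.51 with T286A. Its T286A arrays were thus all above empty vector, the mirror image of LAMP5. OAS3, an interferon-induced enzyme, stood at -0.994, with differences of -0.98 with wild type and 0.18 with T286A. The lysophospholipase ENPP2, the planar polarity gene PRICKLE2 and the glycolytic regulator PFKFB4 had -0.987, -0.980 and -0.977. Correlations below -0.9 were found for 34 of the 345.

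**Figure D5:**
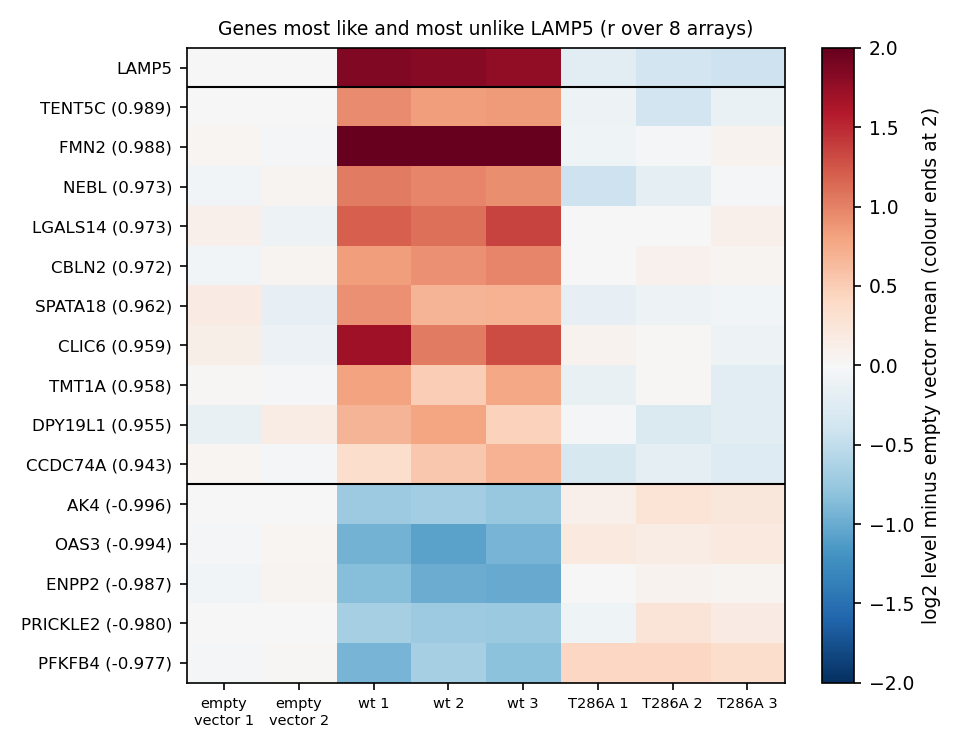
Level in each array minus the empty vector mean (log2, colour) for LAMP5, the 10 genes most like it and the 5 most unlike it, with the correlation over 8 arrays in brackets. The genes like LAMP5 are high in the 3 wild-type arrays, and the 5 unlike it are low there and mostly slightly high with T286A.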

How the data were processed

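RNA from 8 JVM13 samples was hybridised to an Affymetrix human array. The deposited values are log2 expression per probe set, which the authors obtained by RMA (the submitters' processing notes name R 3.5.0). This method corrects background, gives the probe intensities of all arrays the same distribution and combines the probes of a set. The second of these steps removes any change in total mRNA per cell. Medians of the combined probe set values still ran from 5.47 to 5.62 over the arrays. No detection call comes with the values. Scanner files were not used here. The precision is limited by how few arrays there are. Of 48864 probe sets, 10 controls were left out, 45220 were annotated to 1 gene, 1325 to several and 2309 to none, by the platform's annotation.

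Each gene was represented by its probe set with the highest mean. A limma model (3.58.1, under R 4.3.3) with 3 group means took all 8 arrays, with 5 residual and 3.27 prior degrees of freedom. A second fit covered all single-gene probe sets. A gene was called when its two-sided p, adjusted by Benjamini-Hochberg across all genes, was under 0.05. For probe sets other than the brightest the adjustment ran across all probe sets. Differences are log2, ± SE unless marked SD. The fit was tested on simulated data. The members and the 13 gene lists (223 entries, 209 measured) were chosen with earlier results of these data known. The rule for named genes took from each list up to 3 called genes per comparison, or at most the 1 with the smallest p, not all of which are described, and also the 3 neighbours on each side of LAMP5 and the 10 most and 5 least correlated genes. TFEB, TLR9, CLEC4C, LILRA4, NRP1, CD86, ITGAM, CD79A and MS4A1 were named outside this rule, after their values were seen. A replicate block was tried only as an alternative. Deviations of same-numbered wild-type and T286A arrays from their group means correlated at 0.041, 0.12 and 0.0034. For arrays of unlike number the values ran from -0.11 to 0.096. Deviations from a mean of only 3 arrays are bound to each other, so these values cannot show whether the numbers pair the samples. The main fit took no pairing.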

Additional observations from a re-analysis of the deposited data

Results flagged for a closer look

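LAMP5 was flagged for its difference between the constructs. Every wild-type array lay above and every T286A array below empty vector, but groups did not overlap for 28.4% and 30% of all probe sets in these comparisons. T286A minus wild type was -2.15 on probe set 11724996_at and -2.55 on 11747577_a_at. LAMP5 was chosen on these values, so the difference was not tested.

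Other genes were picked out because limma called the difference between the constructs. T286A minus wild type was 1.04 for PLCB1 and -1.03 for PLCB4, the neighbours of LAMP5. It was 0.53 for the dendritic cell marker FSCN1, and -0.65 and -0.60 for the lysosomal membrane genes ABCB9 and SCARB2.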

How the results depend on the processing

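Across 14 alternative settings limma called 0 of LAMP1, LAMP2, LAMP3 and CD68 in all 162 fits of the 12 gene differences, the lowest adjusted p being 0.326. LAMP3 and CD68 drop out with only genes at or above the median level. LAMP5 kept its directions. Without 1 array it ranged from 1.80 to 1.83 for wild type, -0.40 to -0.30 for T286A and -2.21 to -2.12 between constructs, and with the mean of its probe sets it was 1.96 and, between constructs, -2.35. Signs of near-zero differences turned. With the mean of all probe sets, wild type minus empty vector became 0.053 for LAMP1, 0.034 for LAMP2 and -0.097 for CD68, T286A minus empty vector -0.0044 for LAMP2 and -0.084 for CD68, and T286A minus wild type -0.080 for LAMP1 and -0.038 for LAMP2. Centred on housekeeping genes, LAMP1 was 0.0044 with wild type and -0.037 between constructs, and LAMP2 was -0.027 with T286A. With the replicate block, CD68 was -0.031 with wild type and PLCB4 0.056 with T286A. Leaving out 1 array gave, for T286A, ranges of -0.012 to 0.012 (LAMP1), -0.057 to 0.063 (LAMP2), -0.24 to 0.074 (LAMP3), -0.017 to 0.15 (CD68) and -0.15 to 0.17 (PLCB4). It gave -0.11 to 0.11 for CD68 with wild type and, between constructs, -0.0042 to 0.020 (LAMP1), -0.049 to 0.18 (CD68) and -0.050 to 0.045 (GGA1).

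Counts of called genes, 317 for wild type, 97 for T286A and 180 between constructs, depended on the setting, and the cause was not tested. They were 629, 527 and 381 with only genes at or above the median level, 747, 626 and 602 with trend and robust eBayes, and 71, 3 and 86 with the replicate block. With only the 2 groups compared they were 68 and 4 for the first 2 comparisons. The mean of all probe sets gave 190 and housekeeping centring 61 for T286A. Leaving out 1 array gave 22 to 196, 1 to 87 and 70 to 128. The block ended the calls of CD22, CD83, FSCN1, GGA1, ABCB9, PLCB4 and SCARB2 and kept those of PLCB1. With only the 2 groups compared, CD22, CD83, FSCN1 and GGA1 against empty vector and PLCB4 between constructs were no longer called (adjusted p 0.0729 to 0.122), and CD22 was lost on housekeeping centring (0.0841). The alternatives for neighbours and list genes were added after seeing the data. Calls were also gained in the lists with trend and robust eBayes, where limma called 747, 626 and 602 of all 18231 genes. The list calls were 3, 2 and 5 of 37 lysosomal enzymes and activators and 5, 3 and 2 of 8 mature dendritic cell markers.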
